A study of Mus musculus with 2 samples.

Results

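The matrix metalloproteinases (symbols Mmp plus a number), the secreted ADAMTS proteases (Adamts plus a number) and the tissue inhibitors of metalloproteinases (Timp1 to Timp4) were followed through every cell class of the developing mouse esophagus, gastroesophageal squamocolumnar junction (GE-SCJ) and stomach. The members were all genes of the expression matrix with such a symbol, 37 of 19550, made up of 15 Mmp, 18 Adamts and 4 Timp genes. Of these, 35 had at least 50 unique molecular identifiers (UMIs, each counting 1 captured transcript) in the whole matrix, and *Mmp7* with 10 and *Mmp24* with 28 did not. Together the 37 members held 98809 UMIs, which was 0.0916% of all UMIs.

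These enzymes need a zinc ion in the active site and are made as inactive precursors. The Mmp enzymes cut collagens, gelatin and other matrix and cell surface proteins, and some are anchored in the membrane, where they also activate other proteases. The Adamts enzymes include those that cleave the large proteoglycans versican and aggrecan, those that remove the amino-terminal propeptide of fibrillar procollagens, and those tied to fibrillin microfibrils. The Timp proteins bind the active sites of Mmp enzymes, and Timp3, which stays in the matrix, also inhibits several Adamts enzymes. In growing gut, connective tissue is laid down and cut back continuously, which is the process in which both groups are known to act.

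The animals were wild type C57BL/6 mice, taken at E15 and E19 before birth, as pups on day 2 after birth, and as adults of 8 weeks, with no treatment listed. The design text lists 6 mice for E15, 2 for E19, 2 for pups and 3 for adults, whose cells were pooled for each region and stage before tagging and sequencing as single cells. The study's methods give another number of mice for the pools, so the numbers of animals are uncertain. A region at a stage is thus 1 pooled sample, so no test of a stage or region against animal spread was possible, and no p-value is given. The 11 region and stage groups (no adult stomach) held 143 to 1403 cells and 2302227 to 20070615 UMIs each. The tissue was minced and digested with collagenase II and then TrypLE, so each transcript level is that of cells that came through an enzyme digest. A level is in CPM, a share of the summed UMIs of a group of cells put on the usual scale, and ranges in parentheses are exact 95% Poisson intervals, or, after a log2 ratio, exact conditional intervals, all of which cover counting error only.

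The cell classes are the deposited labels, and their marker genes were checked first. The fibroblast list (*Col1a1*, *Col3a1*, *Dcn*, *Lum*, *Postn*, *Pdgfra*) summed to 20419 CPM in cells labelled stromal, called fibroblasts here, and to 378 CPM in columnar cells. The smooth muscle list reached 36904 CPM in its own class, the immune list 6420 CPM, the endothelial list 3693 CPM, the neural list 1899 CPM, the squamous list 17912 CPM and the columnar list 13251 CPM. A second stromal label of 139 cells held 2090 CPM of a mesothelial list (*Upk3b*, *Wt1*, *Msln*, *Lrrn4*, *Upk1b*), against 9.12 CPM in fibroblasts, and is kept apart below. Depth was uneven, with a median of 25118 UMIs per columnar cell and 8940 per fibroblast, and pup fibroblasts had fewer UMIs than E15 fibroblasts in every region. No barcode was repeated within the gene expression library, and the tag of all 7808 cells was equal in both deposited lists.

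Fibroblasts, smooth muscle and the second stromal label held most of the highest levels. Of the 37 members, 13 were highest in fibroblasts, 8 in the second stromal label, 4 in immune cells, 4 in neural cells, 3 in endothelial cells, 3 in squamous cells and 2 in smooth muscle. For 16 of them the intervals of the highest and the second class overlapped, so that their order is not settled by the counts. No member was highest in columnar cells. How many of all genes are highest in each class was not counted, so these numbers describe the members only.

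**Figure D1:**
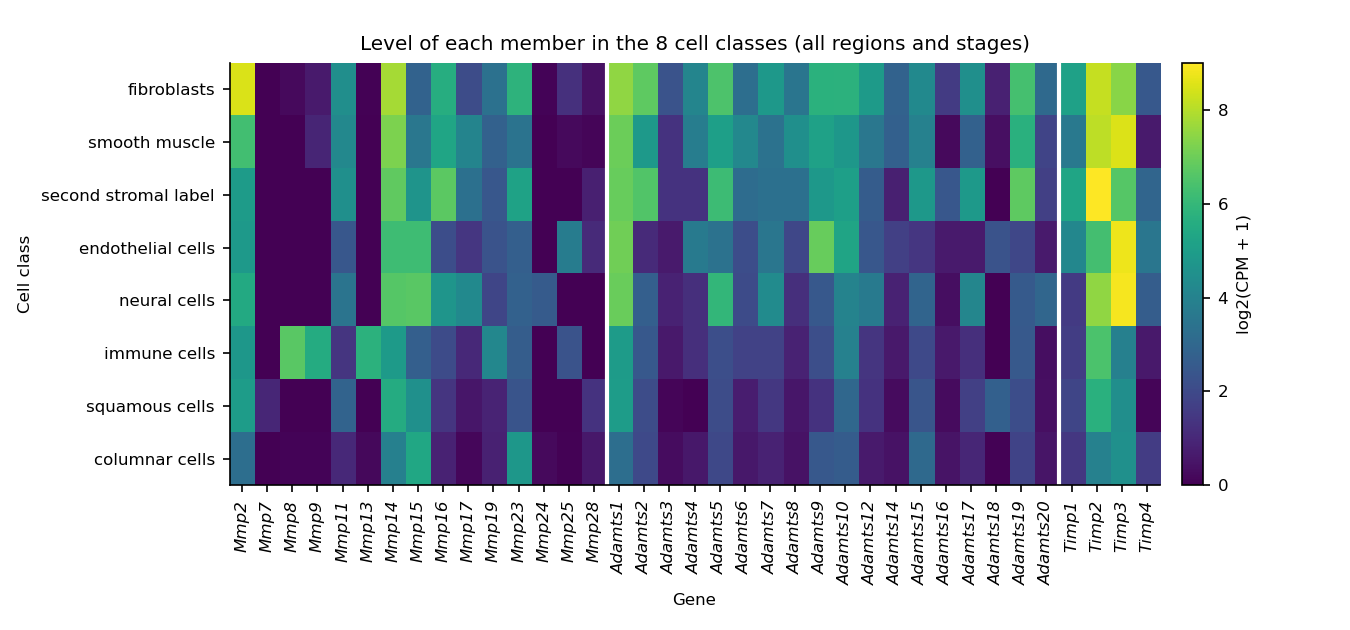
Heat map of log2(CPM + 1) for the 37 members (horizontal axis, Mmp, Adamts and Timp genes from left to right, parted by white lines) in the 8 cell classes (vertical axis), from UMIs summed over all regions and stages. *Mmp2* reached 357 CPM in fibroblasts, *Mmp8* 103 CPM in immune cells and *Timp3* 469 CPM in neural cells.

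Among the gelatinases, *Mmp2*, which cuts denatured collagen and basement membrane collagen, was at 357 CPM (351 to 364) in fibroblasts and 75.8 CPM (70.7 to 81.1) in smooth muscle. *Mmp9*, the other gelatinase, was at 45.2 CPM (38.6 to 52.5) in immune cells and at 0.585 CPM in fibroblasts. These enzymes thus had their highest levels in different classes. The collagenases *Mmp8* and *Mmp13*, which can cut intact fibrillar collagen, were at 103 CPM (93.3 to 114) and 53.7 CPM (46.5 to 61.6) in immune cells.

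Of the membrane-type Mmp genes, *Mmp14*, whose product activates the Mmp2 precursor, was at 220.3 CPM (215 to 225) in fibroblasts and 147 CPM (140.1 to 155) in smooth muscle. *Mmp15* was highest in neural cells at 102 CPM (91.8 to 112), followed by endothelial cells at 72.4 CPM (60.5 to 86.1). *Mmp16* was at 107 CPM (89.8 to 125) under the second stromal label and 48.4 CPM (46.0 to 50.9) in fibroblasts. *Mmp14*, *Mmp15* and *Mmp16* therefore led in separate classes. The glycolipid-anchored *Mmp17* and *Mmp25* were lower, with *Mmp17* at 18.4 CPM in neural cells and 15.8 CPM in smooth muscle, and *Mmp25* at 12.9 CPM (8.19 to 19.4) in endothelial cells and 3.99 CPM in immune cells. *Mmp24* was found mainly in neural cells, at 5.07 CPM.

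The remaining Mmp genes were lower in most classes. *Mmp23* was at 55.3 CPM in fibroblasts, *Mmp11* (a stromelysin-type enzyme) at 20.6 CPM in fibroblasts, and *Mmp19* at 17.0 CPM in immune cells and 9.18 CPM in fibroblasts. Highest in squamous cells were *Mmp28* at 1.49 CPM and *Mmp7*, known as matrilysin, at 0.934 CPM, and these cells held all 10 *Mmp7* UMIs. For *Mmp28* the interval overlapped that of endothelial cells, at 1.12 CPM. *Mmp23* was also found in columnar cells, at 47.4% of its fibroblast level.

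Of the proteoglycan-cleaving Adamts genes, *Adamts1* was at 182 CPM (177 to 187) in fibroblasts and 133 CPM (116 to 151) in endothelial cells, and *Adamts5* at 89.8 CPM (86.5 to 93.1) in fibroblasts. *Adamts9* was the one of this group with its highest level in endothelial cells, at 119 CPM (104 to 136) against 52.7 CPM (50.2 to 55.2) in fibroblasts. *Adamts8* led in smooth muscle, at 21.4 CPM (18.7 to 24.3) against 10.4 CPM (9.28 to 11.5) in fibroblasts. *Adamts4*, *Adamts15* and *Adamts20* were at 16.1, 18.5 and 7.43 CPM in fibroblasts.

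The procollagen N-propeptidase *Adamts2* was at 109 CPM (105 to 112) in fibroblasts, and its relatives *Adamts3* and *Adamts14* were at 3.94 and 6.07 CPM there. Of the genes related to fibrillin, *Adamts10* was at 54.4 CPM in fibroblasts, *Adamts17* at 21.3 CPM, and *Adamts6* was higher in smooth muscle, at 17.6 CPM against 8.57 CPM. *Adamts19* was at 109 CPM (91.8 to 128) under the second stromal label and 81.0 CPM (78.0 to 84.2) in fibroblasts. The pair *Adamts7* and *Adamts12*, known to cut cartilage oligomeric matrix protein, was at 26.7 and 28.8 CPM in fibroblasts, and *Adamts18* was at 5.79 CPM in squamous cells. *Adamts16* was at most 4.47 CPM, under the second stromal label.

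The inhibitors did not share one pattern over the classes. *Timp2* was at 512 CPM (475 to 552) under the second stromal label and 295 CPM (289 to 301) in fibroblasts. *Timp3* was at 469 CPM (447 to 491) in neural cells and 439 CPM (409 to 471) in endothelial cells, whose intervals overlapped. *Timp1* was at 38.0 CPM under the second stromal label and 34.8 CPM in fibroblasts, and *Timp4* was at most 10.7 CPM, in endothelial cells. As a measure of RNA from other cells in the droplets, the fibroblast marker list in columnar cells was at 1.85% of its fibroblast level, beside 2.37% for *Mmp2*, 4.90% for *Timp2* and 13.0% for *Timp3*. How much of a low level comes from such RNA was not tested.

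The collagenases *Mmp8* and *Mmp13* were both found in immune cells, and no immune cell held both. The 354 immune cells were divided by whether they held more UMIs of a neutrophil list (*S100a8*, *S100a9*, *Csf3r*, *Retnlg*) or of a macrophage list (*Csf1r*, *C1qa*, *C1qb*, *Adgre1*, *Mrc1*), a division chosen after values were seen. This gave 50 cells with more neutrophil-list UMIs, 283 with more macrophage-list UMIs and 21 with equal numbers. Both genes lie on chromosome 9 of GRCm38, *Mmp13* at chr9:7272514-7283331 (plus strand) and *Mmp8* at chr9:7558456-7568485 (plus strand), with 275.124 kb between them. They are next to each other among the members only, and other genes between them were not looked at. The bases before their RefSeq starts are shown because these genes differ in the cells that hold them. The RefSeq start of *Mmp8* lies before the gene position given above. The stretches are *Mmp13* from chr9:7272264-7272513 and *Mmp8* from chr9:7558179-7558428, both 250 bases on the plus strand of GRCm38.p6, 5′ to 3′, with the AP-1 type letters TGANTCA in capitals.
Mmp13: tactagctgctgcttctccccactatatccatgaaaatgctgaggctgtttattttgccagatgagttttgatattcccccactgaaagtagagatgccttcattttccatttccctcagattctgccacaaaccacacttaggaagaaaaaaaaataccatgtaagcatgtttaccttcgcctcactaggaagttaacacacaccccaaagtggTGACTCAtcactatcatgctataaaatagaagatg
Mmp8: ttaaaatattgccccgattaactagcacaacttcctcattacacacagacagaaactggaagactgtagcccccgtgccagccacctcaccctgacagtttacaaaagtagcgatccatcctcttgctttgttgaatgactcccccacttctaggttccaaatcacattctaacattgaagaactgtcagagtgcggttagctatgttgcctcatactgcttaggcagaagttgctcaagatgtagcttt

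The stretch of *Mmp13* holds 1 match to TGANTCA, 35 bases before the start, and that of *Mmp8* holds none. The letters read the same on both strands, and 2217 of 32851 RefSeq mouse promoters of 250 bases (6.75%) hold them. RefSeq promoters were found for 23 of the 37 members, and *Mmp7* was the other member with a match. A match is a description of the letters and was not tested as a binding site.

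In the 50 cells with more neutrophil-list UMIs, *Mmp8* had 379 UMIs, or 1147 CPM (1035 to 1269), and 32 cells (64%, exact 95% interval 49.2 to 77.1) had at least 1. In the 283 cells with more macrophage-list UMIs it had 10 UMIs, or 3.07 CPM, in 4 cells (1.41%, 0.386 to 3.58). *Mmp13* had 0 UMIs in the first set, where 3 counts would be 9.08 CPM, so its share of cells was 0% (0 to 7.11). In the second set it had 202 UMIs or 62.0 CPM (53.7 to 71.2) in 21 cells (7.42%, 4.65 to 11.1). The levels thus differed beyond counting error, while the intervals of the shares overlap. No cell held both, among 36 cells with *Mmp8* and 21 with *Mmp13*. How many would hold both if the genes were unrelated was not tested. Few cells carried these counts, since the 10 cells with the most UMIs held 61.1% of the *Mmp8* and 87.6% of the *Mmp13* UMIs.

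The gelatinase *Mmp9* was nearer to *Mmp8*: it had 151 UMIs, or 457 CPM (387 to 536), in 25 of the 50 cells and 14 UMIs, or 4.30 CPM, in 10 of the 283. Of 37 immune cells with *Mmp9*, 22 also held *Mmp8* and 5 also held *Mmp13*. *Mmp25*, a membrane-anchored enzyme known from neutrophils, had 15 UMIs in 9 of the 50 cells and 0 in the 283, where 3 counts would be 0.921 CPM. *Mmp19* was at 19.3 CPM (14.9 to 24.7) in the 283 cells and 3.03 CPM (0.0766 to 16.9) in the 50, and *Mmp14* at 31.6 CPM (25.8 to 38.3) and 9.08 CPM (1.87 to 26.5), from 1 and 3 UMIs in the 50 cells, with intervals that overlap. The first set was the shallower one, with a median of 4440 against 9292 UMIs per cell, so its higher shares for *Mmp8*, *Mmp9* and *Mmp25* were seen at lower depth. Its lack of *Mmp13* was also seen at that lower depth.

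**Figure D2:**
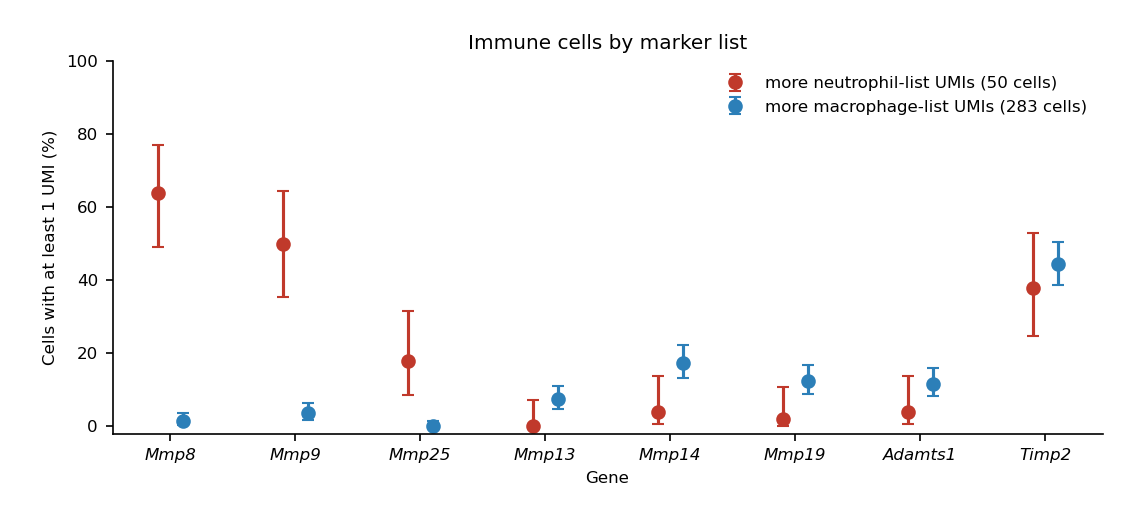
Percent of immune cells in which 8 members were detected (1 UMI or more), in 50 cells with more neutrophil-list UMIs and 283 cells with more macrophage-list UMIs, with exact 95% Clopper-Pearson intervals as bars. *Mmp8* was found in 64% and 1.41% of the cells, *Mmp9* in 50% and 3.53%, and *Mmp13* in 0% and 7.42%.

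Over all immune cells of a stage, *Mmp8* was at 40.3, 113 and 186 CPM at E15, E19 and in the pup, and *Mmp13* at 25.6, 48.1 and 125 CPM. The *Mmp13* level of the pup was 76 UMIs in 4 cells, and the share of immune cells with *Mmp13* was 4.88%, 7.22% and 4.65% at these stages. Within the cells with more neutrophil-list UMIs, *Mmp8* was at 566, 1570.1 and 956 CPM, highest at E19. *Mmp9* was nearly level over all immune cells, at 44.2, 43.2 and 57.6 CPM. *Mmp19* was at 5.90, 4.32 and 51.0 CPM, and 18 more of its UMIs lay in 3 adult immune cells. The cells with more neutrophil-list UMIs made up 9 of 82, 24 of 180 and 16 of 86 immune cells at these stages, and only 6 immune cells came from adults. Whether the *Mmp8* order over stages goes with that share of cells was not tested.

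Fibroblasts of the pup differed from those of E15 in the same direction in most of the called members, with protease and inhibitor genes both higher. A member was counted as past 2-fold at a log2 ratio of at least 1 in size with at least 50 UMIs over both groups. In the esophagus 9 members were past 2-fold higher and 2 lower in the pup, of 21 with enough UMIs, where 9.91% and 12.9% of all genes were higher and lower. In the GE-SCJ 10 were higher and 1 lower of 19 (9.43% and 13.7% of all genes), and in the stomach 10 were higher and 2 lower of 19 (8.37% and 11.3%). The median log2 ratio of the members was 0.22, 1.22 and 1.10 in the 3 regions, beside -0.10, -0.09 and -0.10 over all genes.

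Higher in all 3 regions were the gelatinase *Mmp2*, the proteoglycan-cleaving *Adamts1* and *Adamts5*, the propeptidase *Adamts2*, *Adamts19* and the inhibitor *Timp2*. The upstream sequences of *Adamts1* and *Adamts2* are shown as those of protease genes past 2-fold higher in every region, *Adamts1* from chr16:85803114-85803363 on the minus strand and *Adamts2* from chr11:50601835-50602084 on the plus strand of GRCm38.p6, each as RefSeq gives the 250 bases before the start, 5′ to 3′, with no TGANTCA to put in capitals.
Adamts1: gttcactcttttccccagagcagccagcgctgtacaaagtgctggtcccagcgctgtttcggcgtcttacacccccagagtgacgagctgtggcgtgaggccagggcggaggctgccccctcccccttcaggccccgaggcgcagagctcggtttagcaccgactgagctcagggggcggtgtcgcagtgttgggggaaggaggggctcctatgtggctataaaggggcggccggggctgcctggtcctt
Adamts2: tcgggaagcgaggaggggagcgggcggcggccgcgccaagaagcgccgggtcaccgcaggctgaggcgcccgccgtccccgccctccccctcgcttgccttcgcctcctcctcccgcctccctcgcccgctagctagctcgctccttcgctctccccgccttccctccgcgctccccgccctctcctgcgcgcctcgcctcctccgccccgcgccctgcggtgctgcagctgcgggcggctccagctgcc

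G and C made up 65.6% of the *Adamts1* stretch and 78% of the *Adamts2* stretch, where the median RefSeq promoter had 52.4% and the *Mmp13* and *Mmp8* stretches 40.4% and 44.8%. Among the members, *Adamts1* and *Adamts5* are neighbours on chromosome 16, at chr16:85793827-85803113 (minus strand) and chr16:85856173-85901828 (minus strand), with 53.059 kb between them and the same strand. *Adamts2* lies at chr11:50602084-50807573 (plus strand), and its RefSeq stretch includes the first base of that position.

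*Mmp2* was at 222, 376 and 616 CPM in esophageal fibroblasts at E15, E19 and in the pup, at 270.3, 386 and 668 CPM in the GE-SCJ and at 259, 429.7 and 553 CPM in the stomach. The pup to E15 log2 ratios were 1.47 (1.30 to 1.65), 1.31 (1.11 to 1.51) and 1.10 (0.89 to 1.30). The level was thus already higher at E19 in all 3 regions and higher again in the pup. *Mmp14*, the membrane enzyme that activates it, was at 215, 229 and 439.6 CPM in the esophagus, with a ratio of 1.03 (0.83 to 1.23). That call was lost, at 0.98 each, with a library size free of hemoglobin, ribosomal protein and mitochondrial genes and without the top 1% of cells for the gene. In the GE-SCJ and stomach *Mmp14* stayed under the 2-fold mark over all cells, at 0.84 (0.56 to 1.11) and 0.91 (0.64 to 1.17).

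*Adamts5*, which cleaves aggrecan and versican, differed widely over regions and stages. It was at 78.2, 207 and 277 CPM in the esophagus, 35.3, 59.3 and 361 CPM in the GE-SCJ and 13.9, 28.1 and 267 CPM in the stomach. Its pup to E15 ratios were 1.83 (1.55 to 2.10), 3.35 (3.00 to 3.70) and 4.25 (3.77 to 4.74). In the esophagus most of that difference was present at E19, while in the GE-SCJ and stomach the E19 level was nearer to that of E15. *Adamts1* showed no such E19 step in the GE-SCJ and stomach, at 180.4, 179 and 627 CPM and 135, 134 and 405 CPM, and was at 139, 207 and 583 CPM in the esophagus. Its ratios were 2.07 (1.87 to 2.26), 1.80 (1.59 to 2.01) and 1.59 (1.34 to 1.83).

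*Adamts2* was at 79.3, 165 and 202 CPM in the esophagus, 67.4, 107 and 285 CPM in the GE-SCJ and 62.1, 88.8 and 199 CPM in the stomach, with ratios of 1.36 (1.05 to 1.66), 2.09 (1.75 to 2.41) and 1.69 (1.33 to 2.05). *Adamts19* was at 37.5, 82.4 and 104 CPM, 58.9, 84.4 and 312 CPM and 59.2, 99.4 and 258 CPM in the same order, with ratios of 1.48 (1.03 to 1.91), 2.41 (2.08 to 2.74) and 2.13 (1.79 to 2.46). Both were in the same order of stages, E15 lowest and pup highest, in each region. Past 2-fold higher in some regions only were *Adamts15* in the GE-SCJ (1.22, 0.39 to 1.98) and *Adamts9* in the stomach (1.11, 0.58 to 1.62). *Mmp19*, an enzyme of basement membrane turnover, was higher in the esophagus (4.05, 3.17 to 5.01) and had too few UMIs for the rule in the GE-SCJ and stomach. In the GE-SCJ and stomach, *Mmp23* had ratios of 1.36 (0.77 to 1.90) and 2.02 (1.30 to 2.70), and *Adamts12* of 2.16 (1.47 to 2.82) and 1.30 (0.48 to 2.05). *Adamts15* lost the 2-fold mark in GE-SCJ fibroblasts when the CPM of single cells were averaged, at 0.91, and among cells with few immediate early transcripts, at 0.82. Whether these regions differed in the ratio was not tested.

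The inhibitors did not move alike. *Timp2* was at 261, 434 and 734 CPM in the esophagus, 185, 260.3 and 531 CPM in the GE-SCJ and 151, 249 and 356 CPM in the stomach, with ratios of 1.49 (1.33 to 1.65), 1.53 (1.30 to 1.75) and 1.24 (0.98 to 1.50). Over all cells *Timp3* was past 2-fold in the esophagus only, at 1.44 (1.25 to 1.64) against 0.47 (0.14 to 0.79) and 0.81 (0.53 to 1.09). *Timp1* was past 2-fold higher in the GE-SCJ and stomach, at 1.26 (0.71 to 1.77) and 1.44 (0.76 to 2.08), and was -0.87 (-1.91 to 0.02) in the esophagus, an interval that holds 0. In the stomach the *Timp1* ratio was 0.59 when the 1% of cells with the most *Timp1* UMIs were left out. *Timp4* had 0 UMIs in pup fibroblasts of every region and 6 to 13 UMIs in those of E15, too few for the rule. The pup groups held fewer cells and fewer UMIs. With 1 UMI added to each sum, the *Timp4* ratios were -0.21, -0.33 and -0.71 in the esophagus, GE-SCJ and stomach, none past 2-fold.

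Lower in the pup in all 3 regions was *Adamts7*, at 26.8, 11.6 and 7.96 CPM in the esophagus, 32.9, 30.8 and 7.62 CPM in the GE-SCJ and 34.8, 36.0 and 8.96 CPM in the stomach, with ratios of -1.50 (-2.98 to -0.33), -1.71 (-3.60 to -0.31) and -1.65 (-3.29 to -0.39). *Adamts7* and *Adamts12* share a substrate and went in opposite directions in the GE-SCJ and stomach. *Adamts20* was lower in the esophagus (-2.35, -5.43 to -0.44) and *Mmp11* in the stomach (-1.28, -2.76 to -0.12). In the GE-SCJ and stomach *Adamts20* had too few UMIs for the rule.

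**Figure D3:**
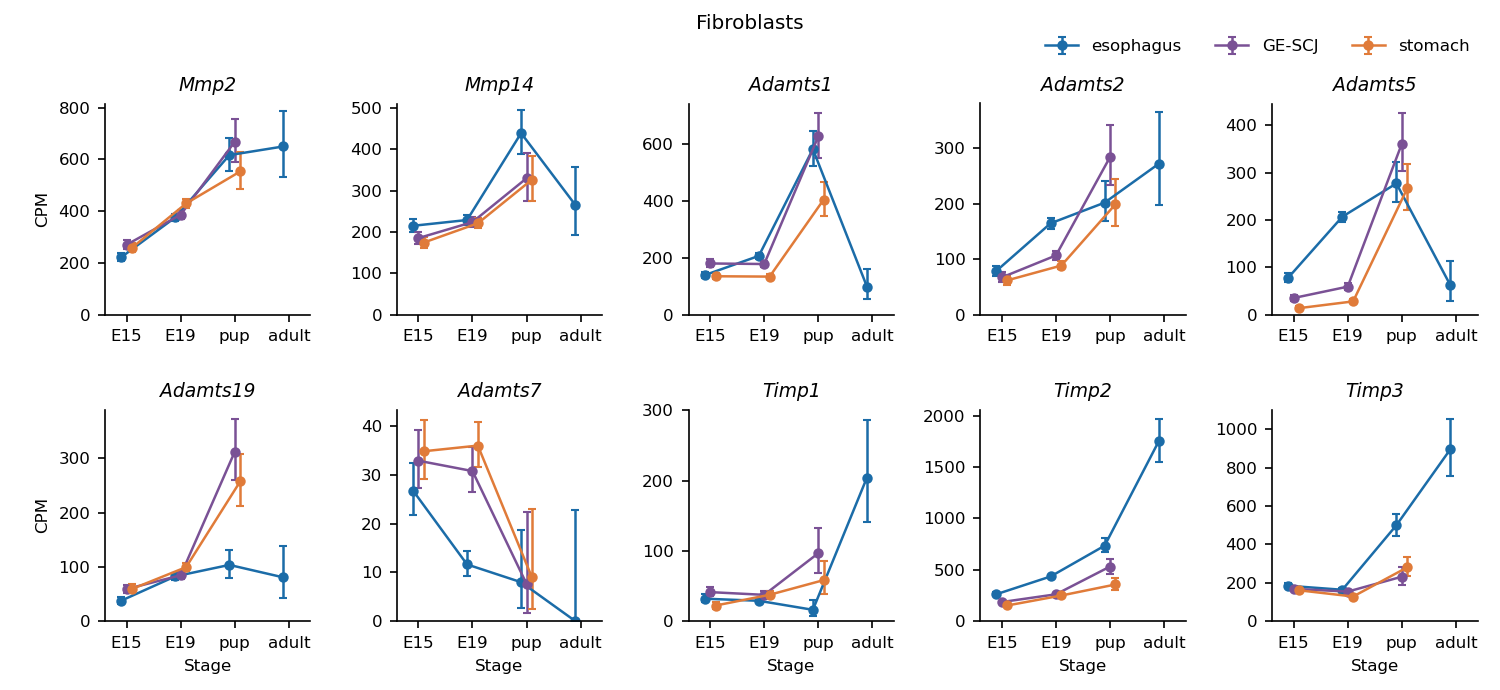
Level in fibroblasts (CPM, vertical axis from 0) of 10 members by stage (horizontal axis) in the esophagus, GE-SCJ and stomach, with exact 95% Poisson intervals as bars and groups of at least 20 cells. *Mmp2* and *Adamts2* were highest after birth in each region, *Adamts7* was lowest there, and adult esophageal *Timp2* reached 1752 CPM while *Adamts1* was at 99.0 CPM.

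Marker lists moved with the stage as well. In cells labelled fibroblasts the fibroblast list went from 22547 to 23627 CPM in the esophagus, from 11557 to 25034 CPM in the GE-SCJ and from 8946 to 19110 CPM in the stomach, all 6 of its genes being detected in each group. The columnar list (*Krt8*, *Krt18*, *Agr2*, *Tff1*, *Muc5ac*, *Gkn1*) went from 663 to 1679, from 771 to 1473 and from 721 to 2569 CPM, the smooth muscle list from 1455 to 588, from 1198 to 864 and from 816 to 1241 CPM, and an erythroid list of 2 hemoglobin genes from 271 to 1198, from 211 to 2876 and from 499 to 269 CPM, in the same order of regions. The part of these in the ratios of the members was not tested.

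The stages also differed in depth and in the level of immediate early genes. Pup and E15 fibroblasts had medians of 3859 and 10573 UMIs in the esophagus, 4242.5 and 9875.5 in the GE-SCJ, and 5072.5 and 9858 in the stomach. A list of 7 immediate early genes (*Fos*, *Fosb*, *Jun*, *Junb*, *Egr1*, *Atf3*, *Ier2*), which enzyme digestion of tissue is known to induce, was at 13475 against 4340.3 CPM, 12409 against 7452 CPM and 12100.3 against 5395 CPM, higher in the pup in every region. The list and the next comparison were chosen after values were seen. Among cells with at most 5000 CPM of these genes (47, 30 and 23 pup and 212, 122 and 196 E15 fibroblasts), 10 of 11, 9 of 11 and 10 of 12 of the called members were still past 2-fold in the same direction, whatever their UMIs. Counted among them were *Adamts20* in the esophagus (-1.78, -7.11 to 0.77) and *Mmp11* in the stomach (-1.97, -7.30 to 0.55). Both had 0 UMIs in the pup cells, and both intervals hold 0. How many of all genes past 2-fold stayed so among these cells was not counted. The part of the immediate early genes in the ratios of the members was not tested.

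Among those cells *Adamts1* had ratios of 1.90, 2.08 and 2.21, *Adamts5* of 1.26, 2.90 and 2.91, and *Mmp2* of 1.22, 1.34 and 1.17. These stayed past 2-fold. *Adamts7* did not, at -0.18, -0.94 and -0.68, nor did *Timp2* in the stomach, at 0.65. Other members gained the mark in regions where they lacked it over all cells. *Timp3* was at 1.44, 1.04 and 0.92 in the esophagus, GE-SCJ and stomach, and *Mmp14* at 1.07, 1.07 and 1.18. To compare shares of cells across depths, each cell was thinned to 3000 UMIs, which left out 8, 3 and 7 shallower cells of E15 and 43, 8 and 1 of the pup. Then 16.5%, 11.2% and 3.12% of E15 and 36.1%, 54.1% and 31.2% of pup fibroblasts of the esophagus, GE-SCJ and stomach held *Adamts5*, compared with 31.1%, 21.1% and 9.17% and 38.4%, 58.5% and 44.9% at own depth. In GE-SCJ and stomach columnar cells, which are deeper and served as background, the thinned share was at most 2.14%.

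A list of 39 related genes (other Adam and Adamts-like genes, genes of the plasminogen system, cathepsins, procollagen enhancers and substrates) also had more genes higher than lower in the pup. In pup against E15 fibroblasts 10 were past 2-fold higher and 3 lower of 30 in the esophagus (9.91% and 12.9% of all genes), 11 and 1 of 26 in the GE-SCJ (9.43% and 13.7%), and 11 and 1 of 27 in the stomach (8.37% and 11.3%). *Adamtsl4*, an Adamts-like protein of fibrillin microfibrils with no protease domain, went from 5.84 to 112 CPM in the GE-SCJ (4.23, 3.47 to 5.02). *Adamtsl3* went from 2.10 to 96.3 CPM in the stomach (5.39, 4.33 to 6.61). The collagen-cutting cathepsin *Ctsk* had ratios of 2.03 (1.45 to 2.57) and 2.14 (1.59 to 2.68) in the GE-SCJ and stomach.

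In fibroblasts, fewer members were past 2-fold between regions than between pup and E15, and the shares of all genes were smaller too. In stomach against esophageal fibroblasts, 0 were past 2-fold higher and 3 lower of 21 at E15 (3.27% and 2.9% of all genes), 1 higher and 2 lower of 26 at E19 (5.14% and 3.31%), and 2 higher and 1 lower of 13 in the pup (2.7% and 3.1%). *Adamts5* was lower in the stomach before birth, with log2 ratios of -2.47 (-2.92 to -2.05) at E15 and -2.87 (-3.10 to -2.65) at E19, and was at -0.05 (-0.40 to 0.29) in the pup. The level in the stomach was therefore below that in the esophagus at both prenatal stages, and the interval in the pup holds 0. These comparisons use the same samples as those between stages, as does the next one between the adult and the pup.

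Also lower in the stomach at E15 were *Mmp23* (-1.23, -1.70 to -0.77) and *Adamts20* (-1.20, -1.91 to -0.53). At E19 *Adamts7* was higher (1.62, 1.25 to 2.00) and *Timp4* lower (-1.24, -1.93 to -0.59). In the pup *Adamts19* (1.31, 0.86 to 1.76) and *Adamts9* (1.06 (0.32 to 1.82), and 0.97 when the CPM of single cells were averaged) were higher. *Timp2* was lower in the stomach at each stage, at -0.79 (-0.94 to -0.64), -0.80 (-0.89 to -0.72) and -1.04 (-1.31 to -0.78), past 2-fold only in the pup, and there it was between -0.94 and -0.87 under the cell filter, with the CPM of single cells averaged and without cells whose 15 nearest neighbours in expression were mostly from the other side of birth. *Timp3* was at -0.20 (-0.36 to -0.04), -0.35 (-0.48 to -0.22) and -0.83 (-1.14 to -0.53), and *Timp1* at -0.52 (-0.94 to -0.11) and 0.37 (0.10 to 0.65) before birth. Of the related genes, *Adamtsl3* was lower in the stomach at E15 and E19, at -3.55 (-4.72 to -2.57) and -2.53 (-3.02 to -2.06).

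Adult esophageal fibroblasts carried more inhibitor transcripts and fewer of *Adamts1* and *Adamts5* than those of the pup. Only 31 adult cells had this label in the esophagus, at a median of 4906 UMIs, and 10 members had enough UMIs. Of these, 2 were past 2-fold higher and 2 lower, beside 7.47% and 10.5% of all genes. *Timp2* was at 1752 CPM (1553 to 1968) in the adult and 734 CPM (669 to 804) in the pup, a log2 ratio of 1.26 (1.04 to 1.47). *Mmp23* was at 130 and 54.1 CPM (1.29, 0.45 to 2.10). *Adamts1* was at 99.0 and 583 CPM (-2.47, -3.27 to -1.77), and *Adamts5* at 61.9 and 277 CPM (-2.03, -3.06 to -1.16).

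*Timp3* was at 897 CPM (757 to 1056) and 500.1 CPM (446 to 559), short of the 2-fold mark (0.85, 0.56 to 1.14). *Timp1* was at 204 CPM (141 to 287) against 15.9 CPM, with 43 UMIs over both groups, too few for the rule. *Timp4* had 0 UMIs in both groups. *Mmp2* (649.9 and 616 CPM) and *Adamts2* (272 and 202 CPM) stayed near the pup level. The 7 immediate early genes were at 1789 CPM in the adult and 13475 CPM in the pup. Among cells with at most 5000 CPM of them (30 and 47 cells) all 4 called members were still past 2-fold whatever their UMIs. *Adamts1* was at -1.80 and *Adamts5* at -1.49. The share of all genes that stayed past 2-fold was not counted here either.

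Summed over families, esophageal fibroblasts had 479, 636, 1250.2 and 2853 CPM of Timp transcripts at E15 and E19, in pups and in adults. The Mmp sum was 555, 766, 1249 and 1169.8 CPM, and the Adamts sum 587, 909.8, 1409 and 681 CPM. There were thus 0.419, 0.379, 0.47 and 1.54 Timp UMIs for each Mmp or Adamts UMI, and 1.46 in the adult without cells whose neighbours were mostly from the other side of birth. In GE-SCJ fibroblasts the same ratio was 0.342, 0.309 and 0.271, and in the stomach 0.314, 0.296 and 0.28. The adult GE-SCJ had 15 fibroblasts, 8 of them with such neighbours, at 273 CPM (187 to 385) of *Timp2*, and was compared with nothing.

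**Figure D4:**
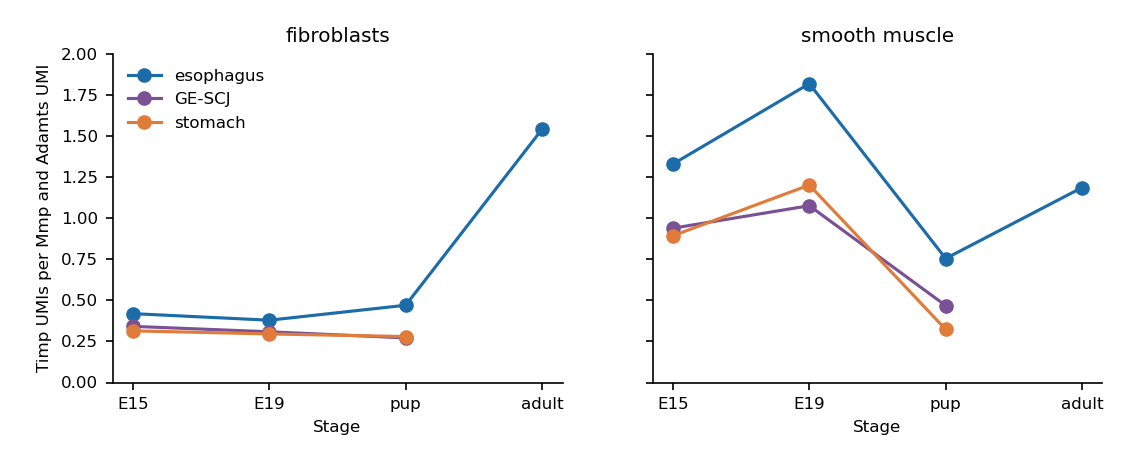
Timp UMIs for each Mmp or Adamts UMI (vertical axis from 0) by stage in fibroblasts and smooth muscle of the esophagus, GE-SCJ and stomach, in groups of at least 20 cells. In esophageal fibroblasts the ratio was 0.47 in the pup and 1.54 in the adult, and in stomach smooth muscle it was 0.894 at E15 and 0.323 in the pup.

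Of the related genes, 7 were past 2-fold higher and 0 lower of 22 in adult against pup fibroblasts, beside 7.47% and 10.5% of all genes. The procollagen enhancer *Pcolce2* went from 20.7 to 446 CPM (4.34, 3.50 to 5.28), and the secreted serine protease *Htra1* had a ratio of 4.07 (3.15 to 5.12).

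Cells labelled smooth muscle also had more protease transcripts in the pup than at E15 in the GE-SCJ and stomach. There *Timp2* was higher by less than 2-fold and *Timp3* was near its E15 level. In the esophagus 2 members were past 2-fold higher and 0 lower of 6 (9.23% and 12.5% of all genes), in the GE-SCJ 6 and 2 of 14 (11.4% and 12.4%), and in the stomach 5 and 1 of 11 (10.9% and 13.3%). *Adamts1* was higher in all 3, at 218 against 60.0 CPM in the esophagus (1.90, 1.19 to 2.57), 458 against 92.9 CPM in the GE-SCJ (2.30, 2.01 to 2.59) and 743 against 54.4 CPM in the stomach (3.76, 3.43 to 4.10). *Mmp2* had ratios of 2.43 (2.06 to 2.81) and 3.52 (3.03 to 4.03), *Adamts2* of 2.56 (1.94 to 3.20) and 3.61 (2.83 to 4.47), and *Adamts9* of 1.80 (1.21 to 2.40) and 2.03 (1.48 to 2.59) in the GE-SCJ and stomach.

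*Adamts5* was higher in the esophagus (1.22, 0.18 to 2.15) and GE-SCJ (2.66, 1.98 to 3.36), *Adamts10* in the GE-SCJ (1.53, 0.85 to 2.21), and *Adamts4*, which cleaves aggrecan and versican, in the stomach, from 3.02 to 125 CPM (5.13, 3.94 to 6.62). Lower in the pup were the membrane-type *Mmp16*, at -1.57 (-2.61 to -0.66) in the GE-SCJ and -1.10 (-2.17 to -0.18) in the stomach, and *Adamts15* in the GE-SCJ (-1.12, -2.41 to -0.04). *Timp3* was at -0.46 (-0.92 to -0.03), 0.05 (-0.19 to 0.28) and 0.09 (-0.16 to 0.33), and *Timp2* at -0.17 (-0.74 to 0.36), 0.75 (0.51 to 0.99) and 0.55 (0.28 to 0.82). The Timp UMIs for each protease UMI were 0.939 at E15 and 0.469 in the pup in the GE-SCJ, and 0.894 and 0.323 in the stomach. The Timp sum itself was higher in the pup, at 772 against 600.3 CPM in the GE-SCJ and 666 against 533 CPM in the stomach, by less than the protease sums. *Timp1* and *Timp4* had too few UMIs in smooth muscle for the rule.

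**Figure D5:**
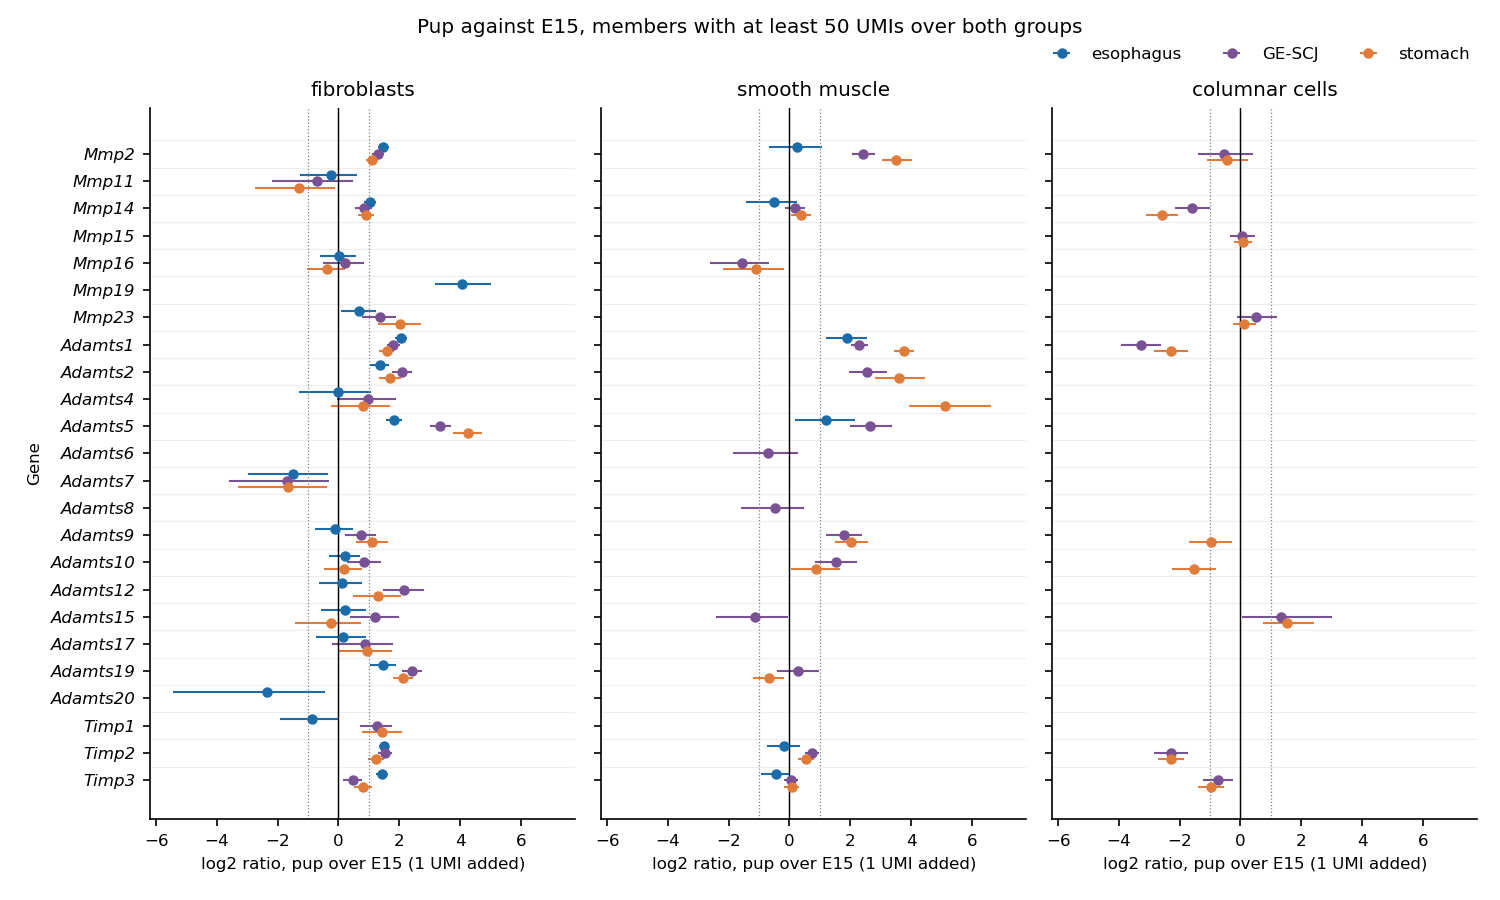
Log2 ratio of pup to E15 (horizontal axis, with exact 95% intervals for counting error) of the members with at least 50 UMIs over both groups, in fibroblasts, smooth muscle and columnar cells by region, with dotted lines at the 2-fold mark. *Adamts1* lies to the right of 1 in all 6 stromal comparisons and to the left of -1 in both columnar ones.

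Markers of other stromal cells moved with these differences. From E15 to the pup the fibroblast list in cells labelled smooth muscle went from 3284 to 7635 CPM in the GE-SCJ, from 2892 to 8699 CPM in the stomach and from 3019.7 to 2887 CPM in the esophagus. The pericyte list (*Rgs5*, *Kcnj8*, *Abcc9*, *Cspg4*, *Notch3*) went from 214 to 1018, from 232 to 2219.5 and from 283 to 366 CPM, and the smooth muscle list from 30359 to 25231, from 33180.1 to 22794 and from 32971 to 42797 CPM. None of these markers was at 0 over the whole class. In pup stomach, the 59 cells with an *Mmp2* UMI had 902 CPM of *Actg2* and the 54 without one had 4868 CPM. The former had 10623 against 6888 CPM of the fibroblast list and 281 against 38.2 CPM of *Pdgfra*. In the pup GE-SCJ *Pdgfra* was at 199 CPM in cells with *Mmp2* and 27.1 CPM in those without. The 31 stomach cells with *Adamts4* had 8745 CPM of the smooth muscle list against 27696 CPM in the 82 without. For *Adamts1* the order of *Pdgfra* was the other one, at 117 against 256 CPM in the stomach and 104 against 149 CPM in the GE-SCJ. The part of cells with fewer muscle or more fibroblast markers in the protease ratios was not tested.

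The immediate early genes were higher in pup smooth muscle as well, at 12735 against 5516 CPM in the GE-SCJ and 12144 against 4819.9 CPM in the stomach. Among cells with at most 5000 CPM of them, *Adamts1* had ratios of 2.34 and 3.09 and *Mmp2* of 2.46 and 3.09, and *Mmp16* no longer passed 2-fold, at -0.95 and -0.11. In the stomach *Adamts4* was at 2.79 (1.00 to 4.75) among those cells, from 7 pup and 4 E15 UMIs, against 5.13 over all cells. *Adamts15* in the GE-SCJ changed direction there, to 0.15, and was at -0.97 over all cells when the CPM of single cells were averaged. The pup esophagus had 22 smooth muscle cells, 11 of them with neighbours mostly from the other side of birth, so its values are the least certain. Adult esophageal smooth muscle, 30 cells, had 1400.3 CPM (1229 to 1589) of *Timp3*, found in 30 of 30 cells, 607 CPM of *Adamts1* and 274 CPM of *Adamts5*, at 4003 CPM of the pericyte list and 11389 CPM of the immediate early genes.

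Fibroblasts and smooth muscle were compared within the 10 region and stage groups that held at least 20 cells of both, each group with equal weight. Of 29 members with enough UMIs, 10 were past 2-fold higher in fibroblasts and 2 higher in smooth muscle, where 8.37% and 5.12% of all genes were. *Mmp2* (mean 443 and 106 CPM, log2 ratio 2.05), *Timp1* (2.22), *Mmp23* (1.90), *Adamts2* (1.84) and *Adamts17* (1.76) were higher in fibroblasts in 10 of 10 groups. *Adamts7* (1.22), *Adamts19* (1.22), *Adamts12* (1.19), *Adamts20* (1.14) and *Adamts5* (1.01) were higher in 7, 9, 9, 8 and 9 groups. *Mmp17* (-2.07) and *Adamts8* (-1.33) were higher in fibroblasts in 1 of 10 groups each. Over all smooth muscle cells the fibroblast list was at 18.8% of its fibroblast level. Beside it *Mmp23* was at 17.5%, *Mmp2* at 21.2%, *Adamts2* at 25.7%, *Timp1* at 33.1%, *Adamts5* at 37.0% and *Adamts19* at 62.9%. How much of these smooth muscle levels comes from fibroblast RNA or cells was not tested.

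The inhibitors were divided between these classes. *Timp3* was higher in fibroblasts in 1 of 10 groups, at a mean of 287 and 478 CPM in fibroblasts and smooth muscle (-0.74), while *Timp2* was higher in fibroblasts in 5 of 10 (0.76) and *Timp4* in 6 (0.30). The *Timp2* mean of 491 CPM in fibroblasts includes the adult esophageal group at 1752 CPM, and its group ratios ran from -0.47 to 2.87. Only *Timp1* of the 4 was past 2-fold. *Adamts5* was at 0.87 when the CPM of single cells were averaged and so lost the 2-fold mark.

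In endothelial and neural cells the inhibitor *Timp3* was higher in the pup than at the other stages. In endothelial cells it was at 294, 263, 2381 and 969 CPM from E15 and E19 to pup and adult (46, 69, 21 and 21 cells, summed over regions), and in neural cells at 215, 559.7, 2075 and 970.2 CPM (202, 145, 59 and 13 cells). The pup intervals, 2109 to 2678 and 1908 to 2253 CPM, lie above those of the other stages in both classes. *Timp2* was at 31.0, 31.4, 645 and 258 CPM in endothelial and 109, 246, 427 and 435 CPM in neural cells. *Timp4* was at 146 CPM (85.1 to 234) in pup endothelial cells, from 17 UMIs, and at 0 and 1.21 CPM there at E15 and E19. Of the 21 pup endothelial cells, 8 had neighbours mostly from the other side of birth, and the regions made up different shares of the stages, so that stage and region cannot be told apart in these sums. Within a region, the Timp genes together could be followed in neural cells. They were at 405 CPM (363 to 451) at E15 and 2293 CPM (2010 to 2605) in the pup in the esophagus. In the stomach they were at 285, 770 and 2567 CPM at E15, E19 and in the pup. The 7 immediate early genes were at 26226 CPM in pup and 6364 CPM in E15 neural cells of the esophagus and at 19334 and 4553 CPM in those of the stomach, and their part in the *Timp3* difference was not tested.

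Among the proteases of these classes, *Adamts9* in endothelial cells was at 94.4, 130.2, 155 and 210 CPM over the 4 stages and *Mmp15* in neural cells at 79.9, 132, 142 and 134 CPM. Both were lowest at E15. Under the second stromal label (26, 60 and 52 cells at E15, E19 and in the pup), *Timp2* was at 312, 379.8 and 909 CPM and *Timp3* at 66.9, 66.4 and 169.7 CPM, both highest in the pup. *Adamts5* was at 63.7, 111 and 10.6 CPM and *Adamts19* at 134, 149.8 and 18.6 CPM, lowest in the pup, while pup fibroblasts had more of both than E15 and E19 fibroblasts in each region. *Mmp16* was at 108, 124 and 74.2 CPM. Under this label 46 of the 60 cells of E19 came from the GE-SCJ, and 15 of the 26 of E15 and 27 of the 52 of the pup from the stomach, so stage and region cannot be told apart here either.

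In squamous cells the members were low, and adult cells had less inhibitor transcript in the esophagus and more *Mmp2* transcript in the GE-SCJ than E15 cells. In the esophagus 0 members were past 2-fold higher and 3 lower of 6 in the adult (10.3% and 21.9% of all genes), and in the GE-SCJ 1 was higher and 0 lower of 4 (10.2% and 21.2%). *Timp3* was at 55.0, 22.2, 22.6 and 6.85 CPM in the esophagus from E15 and E19 to pup and adult, and *Timp2* at 56.0, 63.8, 231 and 16.2 CPM, with adult to E15 ratios of -2.97 (-3.74 to -2.24) and -1.79 (-2.36 to -1.22). *Mmp14* had a ratio of -1.13 (-1.61 to -0.64), and -0.49 when the CPM of single cells were averaged. In the GE-SCJ *Timp3* was at -0.40 (-1.23 to 0.45), and *Timp2*, *Timp1* and *Timp4* had too few UMIs for the rule. In esophageal squamous cells of E15 the fibroblast list summed to 1516 CPM, compared with 407 CPM in those of the adult, and its part in these differences was not tested.

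*Mmp2* in squamous cells was at 22.4, 17.6, 9.25 and 44.6 CPM in the esophagus (0.94, 0.30 to 1.64) and 7.74, 11.1, 8.96 and 66.3 CPM in the GE-SCJ (2.92, 1.89 to 4.17). It was past 2-fold in the GE-SCJ only. In the GE-SCJ the fibroblast list summed to 286 CPM in E15 cells and 212 CPM in adult cells, and its part in the *Mmp2* difference was not tested. At 3000 UMIs per cell 9.60% of adult esophageal and 14.5% of adult GE-SCJ squamous cells held *Mmp2*, compared with 1.69% and 2.13% at E15 and at most 2.80% of GE-SCJ and stomach columnar cells. It was 12.9% of the 31 GE-SCJ cells of E19 that were deep enough. The thinning left out 34 and 4 adult and 5 and 0 E15 cells. At own depth the shares were 29.7% and 48.3%, compared with 18.8% and 8.51% at E15 and 9.43% to 16.2% in those columnar cells, whose median depths were 22286 to 29810 UMIs. The 69 adult esophageal cells with *Mmp2* had 35217 CPM of the suprabasal keratin *Krt13* and 667 CPM of the basal keratin *Krt5*, while the 163 without had 20003 and 1940.3 CPM, at median depths of 20347 and 7323 UMIs. The fibroblast list was at 540 CPM in the cells with *Mmp2* and 278 CPM in those without. In the adult GE-SCJ the list had the other order, at 165 CPM with *Mmp2* and 316 CPM without.

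The pup esophagus had 2 squamous labels that differed in these genes. Its 29 cells of the second label had 220 *Timp2* UMIs, or 548 CPM (478 to 625), in 29 of 29 cells, and the 56 of the first label 8.76 CPM, in 4 cells. *Mmp14* was at 172 and 63.1 CPM in the second and first label. *Adamts1* was at 9.96 and 169.9 CPM and *Timp3* at 0 and 38.5 CPM, so these went the other way. Of the mesothelial list, the cells of the second label had 2250.3 CPM of *Upk1b* against 98.1 CPM and 1001 CPM of *Msln* against 14.0 CPM, with 2 and 0 UMIs of *Upk3b* and none of *Wt1* under either label. The second label had 6915 CPM of *Krt13* and 12.4 CPM of *Krt5*, and the first 1456 and 732 CPM. The labels come from clustering of the same cells, so these values are a description.

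In columnar cells *Mmp14*, *Timp2* and *Adamts1* were lower in the pup than at E15. In the stomach 1 member was past 2-fold higher and 4 lower of 10 (9.32% and 20.9% of all genes), and in the GE-SCJ 1 was higher and 3 lower of 8 (8.81% and 21.8%). *Mmp14* was at 24.3, 14.7 and 4.03 CPM in the stomach at E15, E19 and in the pup (-2.58, -3.12 to -2.06), *Timp2* at 31.3, 13.2 and 6.39 CPM (-2.29, -2.72 to -1.86) and *Adamts1* at 19.4, 5.76 and 3.94 CPM (-2.29, -2.85 to -1.74). The same genes had ratios of -1.59 (-2.16 to -1.01), -2.27 (-2.83 to -1.71) and -3.26 (-3.94 to -2.60) in the GE-SCJ. *Adamts10* was lower in the stomach (-1.52, -2.24 to -0.81), and *Timp3* was at -0.98 (-1.41 to -0.54) and -0.75 (-1.22 to -0.25), short of the mark. The fibroblast list in these cells went from 291 to 176 CPM in the stomach and from 644 to 199.7 CPM in the GE-SCJ, in the same direction, and its part in the differences was not tested.

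*Adamts15* was higher in the pup, at 11.1 against 3.63 CPM in the stomach (1.53, 0.75 to 2.41) and 9.40 against 3.02 CPM in the GE-SCJ (1.33, 0.05 to 3.00). In the stomach 25.6% of pup and 9.29% of E15 cells held a UMI of it, but at 3000 UMIs per cell the shares were 2.02% and 2.14%, so the share of cells gives no order. The membrane-type *Mmp15* was steady in both regions, at 32.6 and 34.9 CPM in the stomach and 43.1 and 45.2 CPM in the GE-SCJ. Of the related genes, *Furin*, which activates membrane-type Mmp and many Adamts precursors, was higher in the pup, at 2.82 (2.55 to 3.10) in the stomach and 3.85 (3.26 to 4.51) in the GE-SCJ. *Vcan*, the Adamts substrate versican, was lower, at -5.09 (-5.60 to -4.62) and -5.14 (-5.69 to -4.62).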

How the data were processed

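Cells of mouse esophagus, GE-SCJ and stomach were sequenced as 1 gene expression library with 1 library of multiplexing tags. The values used are UMI counts per gene and cell as deposited, which the authors made with Cell Ranger 6.1.1 on mm10 per the submitters' processing notes. The authors removed barcodes by genes, UMIs and mitochondrial share, and the deposited mitochondrial percent reached 19.7%. Cell classes are the deposited labels, region and stage the deposited tag, and mice were pooled within a tag. Doublets were not called again. No column of per-sample values was left unused.

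UMIs were summed by class, region and stage. With 1 sample a group no test was run, and members past 2-fold (50 UMIs over both groups, 20 cells a group, 1 UMI added to each sum) were named, up to 10 in each direction, with Timp1 to Timp4 in every comparison and at most 6 related genes. The members and lists were chosen with earlier results of these data known. Alternatives were another cell filter (at least 1000 UMIs, at most 10% mitochondrial), averaging the CPM of single cells, a library size without mitochondrial, ribosomal protein and hemoglobin genes, UMI minimums of 20 and 100, thinning to 3000 UMIs, leaving out the top 1% of cells by UMIs of the gene, and leaving out cells whose 15 neighbours (30 principal components, 2000 variable genes) were mostly from the other side of birth. The log2 ratio calls and their conditional intervals were tested on simulated counts, for pup against E15 fibroblasts of the stomach only. Those counts were Poisson draws for whole groups with no spread between cells, so they cannot show how the intervals behave under such spread. The thinned shares and the other intervals were not tested in this way. Scripts ran under Python 3.11.15 with pandas 2.3.3, numpy 2.4.6, matplotlib 3.10.9, scikit-learn 1.9.0 and scipy 1.17.1. Gene positions are from GENCODE for GRCm38. *Mmp3*, *Mmp10* and *Mmp12* were not analysed here. One of the related genes is not reported here by name.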

Additional observations from a re-analysis of the deposited data

Results flagged for a closer look

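Each of these members was past 2-fold higher in the pup than at E15 in one cell class and past 2-fold lower in another. Each group is 1 pooled sample, so the difference between the classes was not tested. The fibroblast list was also lower in pup than in E15 columnar cells of both regions, and its part in the columnar ratios was not tested. *Adamts1* had pup to E15 log2 ratios of 2.07, 1.80 and 1.59 in fibroblasts and 1.90, 2.30 and 3.76 in smooth muscle of the esophagus, GE-SCJ and stomach, and of -2.29 and -3.26 in columnar cells of the stomach and GE-SCJ. *Timp2* had 1.49, 1.53 and 1.24 in fibroblasts of the 3 regions, and -2.29 and -2.27 in columnar cells of the stomach and GE-SCJ. *Mmp14* had 1.03 in esophageal fibroblasts, and -2.58 and -1.59 in columnar cells of the stomach and GE-SCJ, and the first of these was 0.98, short of 2-fold, under each of the other library size and the omission of the top 1% of cells. *Adamts10* had 1.53 in GE-SCJ smooth muscle and -1.52 in stomach columnar cells. *Adamts15* had 1.22 in GE-SCJ fibroblasts, 1.53 and 1.33 in columnar cells of the stomach and GE-SCJ, and -1.12 in GE-SCJ smooth muscle. Its fibroblast ratio was 0.91 when the CPM of single cells were averaged and 0.82 among cells with few immediate early transcripts, and its smooth muscle ratio -0.97 and 0.15, so neither call held there.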

How the results depend on the processing

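Of 88 ratios past 2-fold, 74 stayed past 2-fold in the same direction under every alternative that was run for them. The UMI minimums were not among these alternatives, and not every alternative was run for all 88. Ratios that stayed were counted for the members only, with no share of all genes beside them. Those that stayed were 87 under the cell filter, 82 when the CPM of single cells were averaged, 87 with a library size free of hemoglobin, ribosomal protein and mitochondrial genes, 86 without the top 1% of cells by UMIs of the gene, 85 of 86 without cells whose neighbours were mostly from the other side of birth, and 44 of 52 among cells with few immediate early transcripts, an alternative chosen after seeing the data. The last one also turned *Adamts15* in GE-SCJ smooth muscle from -1.12 to 0.15. The counts of members past 2-fold moved most with the UMI minimum. At minimums of 20 and 100 UMIs, pup against E15 smooth muscle had 4 and 0 in place of 2 in the esophagus, 13 and 3 in place of 8 in the GE-SCJ, and 13 and 3 in place of 6 in the stomach, and GE-SCJ columnar cells had 7 and 2 in place of 4. At 20 UMIs, stomach against esophageal fibroblasts of E19 had 5 in place of 3, and adult against E15 squamous cells 6 in place of 3 in the esophagus and 4 in place of 1 in the GE-SCJ. When the CPM of single cells were averaged, stomach against esophageal fibroblasts of the pup had 1 in place of 3, and without cells with neighbours across birth GE-SCJ squamous cells had 2. Among cells with few immediate early transcripts, smooth muscle had 3 in the GE-SCJ and 2 in the stomach. Pup esophageal smooth muscle was not refitted without cells across birth or among the latter cells, since under 20 cells were left. No paired analysis was possible because each region and stage is 1 pooled sample with no replicates. Few cells stand behind the adult fibroblast values, 31 in the esophagus and 15 in the GE-SCJ.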
